A study of Mus musculus with 11 samples.

Results

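Gene expression in mouse intestine was compared between the FSP group (n = 4 libraries), named for the herbal powder with Poria of the series title, and the HFD group (n = 4), whose letters were read as high-fat diet. These are 8 of the 11 libraries of the series, and the other 3 come from the ND group, read as normal diet, whose levels are given beside the comparison. Members were all genes with a mean of at least 1 FPKM (fragments per kilobase of gene, scaled to the fragments of the library) over the 8 libraries, which held for 10252 of the 24250 genes in the table. The powder is a traditional Chinese formula, also known as Wulingsan, and Poria is a fungus. The titles name the FSP libraries by the preparation alone, so the diet of these mice is not given in the sources used here, and neither are strain, age, sex, dose, duration or the stretch of intestine taken. The series title speaks of obese mice, lipid disorders and the release of gastric inhibitory polypeptide. Whether each library is a separate mouse is not stated, and the p-values therefore describe scatter among libraries that may be technical in part.

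The absorptive epithelium of the small intestine changes along its length. Proximal enterocytes take up most fat, iron, calcium and folate, whereas distal enterocytes recover bile acids and cobalamin and carry more peptidases of certain kinds on the brush border. Enterocytes also make cholesterol through the SREBP2 pathway and, when fatty acids are plentiful, burn fat under the nuclear receptor PPAR-alpha. In whole tissue, a lower level can mean fewer cells of a type or less RNA per cell, and these cannot be told apart.

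The 8 libraries held 31820000 to 38400000 fragments as estimated from the values, with 35320000 to 37110000 in ND. Within HFD and within FSP, log2 levels of library pairs correlated across genes with r from 0.955 to 0.991, a description in which genes are not independent. Enterocyte markers were abundant throughout, with Vil1, a structural protein of microvilli, at 738 to 927 FPKM in HFD and 965 to 1159 in FSP. The enterocyte marker Alpi went the other way, at 480 to 898 FPKM in HFD, 464 to 489 in FSP and 239 to 345 in ND, with overlap between HFD and FSP. HFD 1 stood apart by its mitochondrially encoded genes, which took 40.4% of summed FPKM against 18.1% to 26.3% in the other HFD libraries and 12.9% to 21.9% in FSP. A position score, the mean log2(FPKM + 1) of 14 distal genes minus that of 15 proximal genes, ran from −2.20 to −1.14 in HFD, from −0.65 to 1.52 in FSP and from 1.00 to 3.38 in ND, so that HFD and FSP did not overlap. Markers of B and plasma cells (17 listed) summed to 126 to 328 FPKM in HFD, 87.6 to 821 in FSP and 39.2 to 65.0 in ND, and adipocyte markers (15 listed) to 164 to 281, 151 to 645 and 155 to 170. Among defining markers, the B cell receptor subunit Cd79a was high in HFD 1 to 3 and in FSP 1 and 2, and the fat cell hormone Adipoq was highest in FSP 4, at 28.0 FPKM. Of the colon genes (8 listed), the enzyme Car1 was at 0 in all 8 libraries, but others were not. Aqp8 was at 0.259 to 1.90 FPKM in HFD and 0 to 0.0704 in FSP. The list summed to 7.99 to 13.7 FPKM in HFD, 8.62 to 79.7 in FSP and 119 to 232 in ND. These levels moved within both groups, and their part in the results was not tested except as stated.

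**Figure D1:**
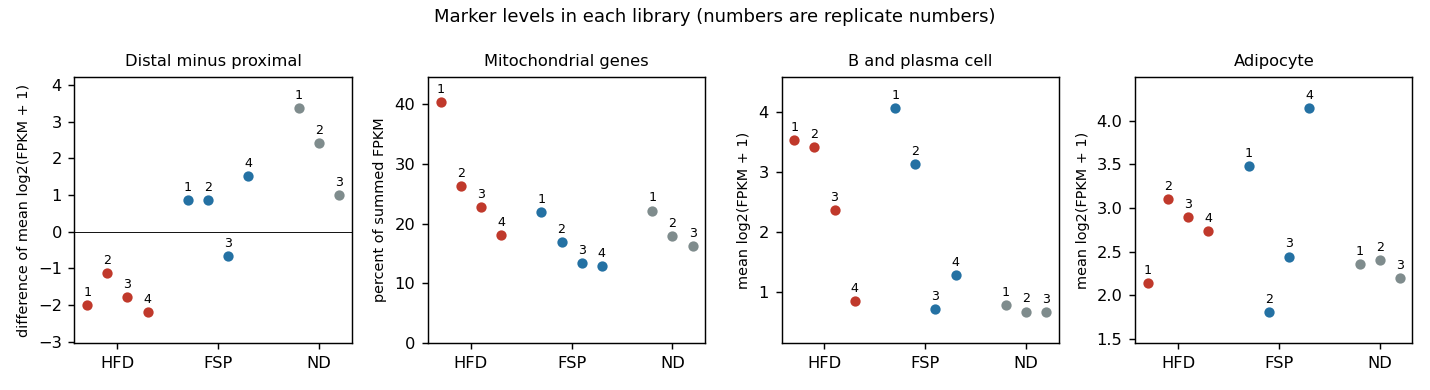
Levels that describe each library: the position score, the percent of summed FPKM in mitochondrially encoded genes, and the mean level, as log2(FPKM + 1), of markers of B and plasma cells and of adipocytes, with 1 point a library and its replicate number above it. All FSP libraries lie above all HFD libraries in the position score, HFD 1 has the highest mitochondrial share at 40.4%, and the marker levels of B cells and adipocytes overlap between HFD and FSP.

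Against HFD, the FSP libraries were higher in 13 of 27 brush-border peptidases and amino acid transporters, the ileal bile acid binding protein Fabp6, 6 of 24 genes of cholesterol synthesis and the oxidase Duox2. They were lower in 7 of 41 genes that burn fat or answer to PPAR-alpha, in Reg1 and Reg4, and in the proximal genes S100g, Slc46a1 and Onecut2. In all, 389 of the 10252 genes passed limma's test at an adjusted p of 0.05 (Benjamini-Hochberg over all tested genes), which is 3.79%. Of these, 288 were higher in FSP (2.81% of tested genes) and 101 lower (0.985%). An unadjusted p under 0.05 was found for 1925 of the 10252 genes. The counts given for lists below are to be read beside these shares. The changes were over 2-fold on the log2(FPKM + 1) scale for 68 of the rises and 49 of the falls, and over 4-fold for 17 and 13. Every FSP library lay above every HFD library for 283 of the 288 rises, where 8.46% of all tested genes did so, and below for 92 of the 101 falls, where 2.39% did so. Lack of overlap was thus the rule among calls and adds no support to single calls below. Over the tested genes as a whole the median log2 change was 0.11, and 74.0% of the calls were rises. Median-ratio scaling brought that median to −0.00 and gave 178 rises and 172 falls (50.9% rises), quantile normalization gave 243 and 197 (55.2% rises), and equal totals without the mitochondrially encoded genes gave 159 and 127 (55.6% rises). All 389 genes kept their direction under each of these scalings.

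**Figure D2:**
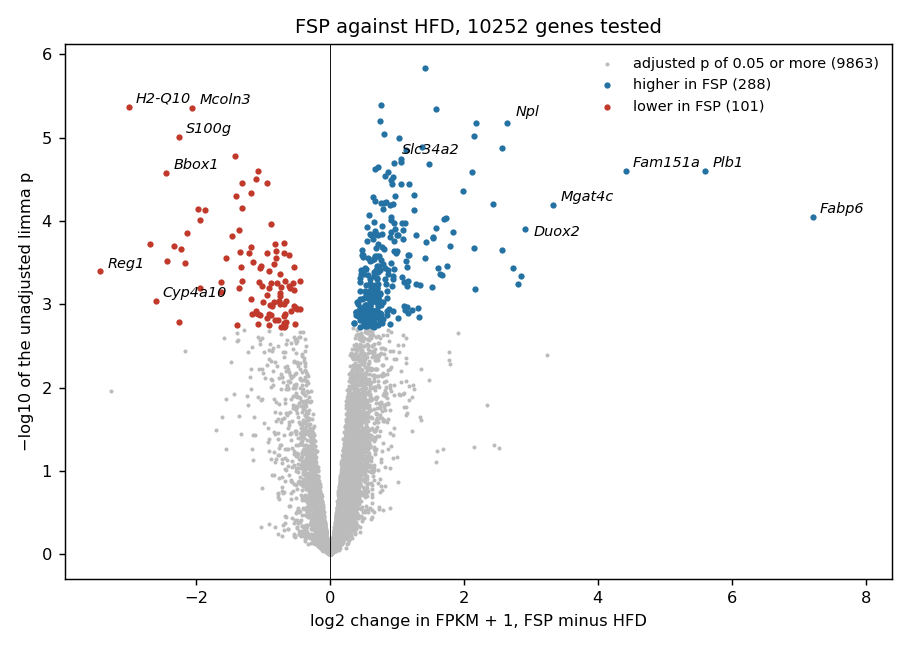
Each point is 1 of the 10252 tested genes, with its log2 change (FSP minus HFD, FPKM + 1) on the horizontal axis and −log10 of the unadjusted limma p on the vertical axis. The 288 genes higher in FSP (blue) reach a log2 change of 7.21 at Fabp6, and the 101 lower ones (red) reach −3.43 at Reg1.

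The number of calls depended on single libraries. It fell to 48 (34 higher, 14 lower) without FSP 4 and to 70 without HFD 3, was 177 (132 higher, 45 lower) without HFD 1, 159 without ND 2, between 168 and 198 without HFD 4, FSP 1 or FSP 2, and rose to 454 without FSP 3. A fit of the 8 libraries alone, with fewer libraries to estimate the spread, called 72 genes. Of the 389 calls, 42 (30 higher, 12 lower) remained with each of the 11 libraries left out in turn, and these are said to hold below. When the position score entered limma as a covariate, 0 genes passed (smallest adjusted p = 0.0813), and all 389 kept their direction. In that fit 722 of the 10252 had an unadjusted p under 0.05, against 1925 without the covariate. Since the score did not overlap between the groups, and some listed genes are themselves among the calls, gut position and treatment cannot be told apart here.

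The largest rise among calls that hold was that of Plb1 (chromosome 5, 32232691 to 32364356, GRCm38.p6, plus strand), a phospholipase of the brush border. Its levels were 0.0739, 5.54, 2.04 and 0.0583 FPKM over HFD 1 to 4 and 192, 175, 14.3 and 239 over FSP 1 to 4, against 163, 208 and 266 in ND. The means were 155 ± 97.8 and 1.93 ± 2.58 FPKM (SD, n = 4 each), or 80.5-fold (log2 change 5.60, SE 0.83, adjusted p = 0.00965). All FSP libraries were above all HFD libraries, and FSP 3 was the lowest of the FSP group by a wide gap, as it was in the position score. Fam151a (chromosome 4, 106733915 to 106748292, plus strand) showed the same order of libraries within FSP. It stood at 0.315, 11.8, 4.45 and 0.863 FPKM in HFD and 116, 86.1, 28.2 and 119 in FSP (log2 change 4.42, SE 0.65, adjusted p = 0.00965), with 95.3 to 140.4 in ND. Fabp6 is treated with the bile acid genes.

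**Figure D3:**
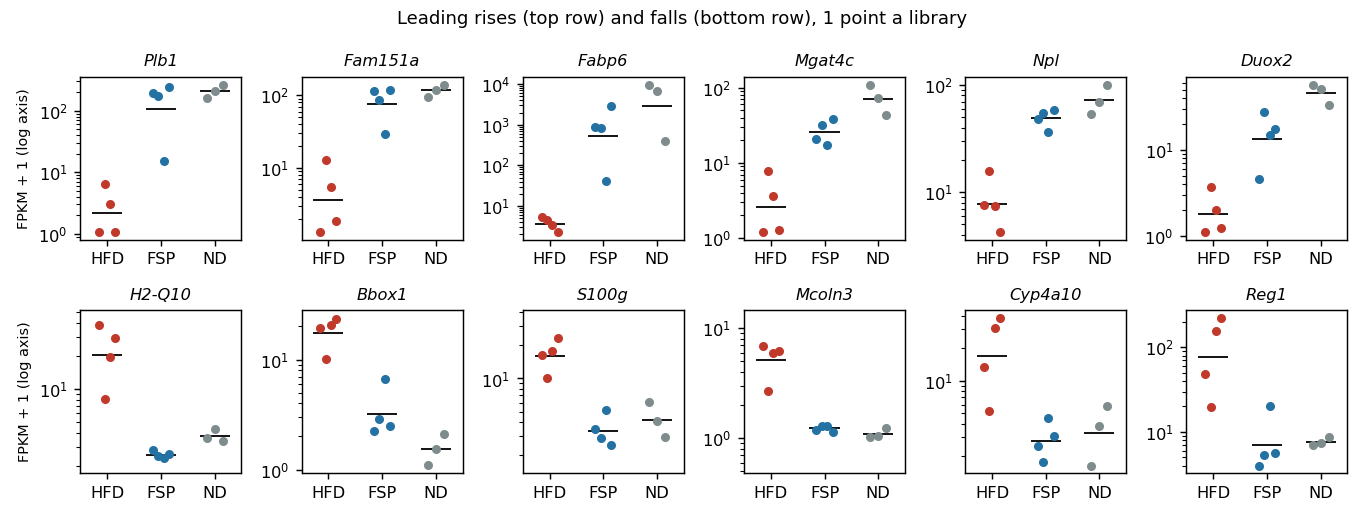
FPKM + 1 on log axes for 6 leading rises (top) and 6 leading falls (bottom), with 1 point a library and a bar at the mean of the log2 values. The groups HFD and FSP do not overlap in 11 of the 12 panels (they overlap for Reg1), and ND lies nearer to FSP than to HFD in each.

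Sialic acid and N-glycan enzymes had 5 rises, 1 of them a call that holds. Npl (chromosome 1, 153503016 to 153549714, minus strand), the lyase that breaks down free sialic acid, stood at 6.56, 14.8, 6.40 and 3.23 FPKM in HFD and at 46.8, 54.4, 35.5 and 57.9 in FSP (log2 change 2.64, SE 0.34, adjusted p = 0.00857), and its call holds. FSP was 6.28-fold higher, with no overlap, and ND was at 53.1 to 100.02. Mgat4c, a branching N-acetylglucosaminyltransferase, was at 0.197, 6.69, 2.60 and 0.284 FPKM in HFD and 19.7, 31.1, 16.4 and 36.9 in FSP (log2 change 3.33, SE 0.55, adjusted p = 0.0130), a call that ended without FSP 4 (adjusted p = 0.0520). The lysosomal sialidase Neu1 rose 3.28-fold, with 6.31 to 7.58 FPKM in HFD against 13.1 to 25.9 in FSP (log2 change 1.53, SE 0.28, adjusted p = 0.0179), a call that ended without HFD 3 or FSP 4 (adjusted p up to 0.0682). Of 21 tested genes of this list 5 were higher and 0 lower, the other 2 being the sialyltransferase St3gal4 and the glycan-chain enzyme Mgat1, with log2 changes of 0.45 and 0.39 and adjusted p up to 0.0960 and 0.124 with a library left out (FSP 4 in both). The list's median log2 change was 0.25 beside 0.11 for all tested genes. Its count was 3 without ND 2, HFD 1, HFD 2 or FSP 2, 2 without HFD 3 and 1 without FSP 4.

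Transporters and peptidases of the amino acid supply formed the list with the most calls. Of 27 tested members 13 were higher in FSP (48.1%, beside 2.81% of all tested genes) and 0 were lower. In all 18 had an unadjusted p under 0.05, and the median log2 change was 0.73. Every FSP library was above every HFD library for 17 of the 27, beside 8.46% of all tested genes. The count was 10 with median-ratio scaling, 5 in the fit of 8 libraries, 4 without FSP 4, 7 without HFD 3, 8 without ND 2 or FSP 2, 12 without HFD 1, and 0 with the position score as covariate. Aminopeptidase P2 (Xpnpep2, chromosome X, 48106913 to 48136982, plus strand), which removes residues before proline, was at 7.18, 31.4, 21.7 and 16.4 FPKM in HFD and 122, 106, 68.1 and 143 in FSP, or 5.72-fold (log2 change 2.57, SE 0.36, adjusted p = 0.00962). The peptidase Naaladl1 was at 80.3, 248, 169.7 and 135 FPKM in HFD and 664, 484, 431 and 835 in FSP (log2 change 1.99, SE 0.31, adjusted p = 0.0118). In both, HFD 1 was lowest and FSP 4 highest, the groups did not overlap, and the calls hold. Slc7a9, the light subunit of the cystine and basic amino acid carrier, was at 47.1, 67.1, 69.4 and 72.0 FPKM in HFD and 109, 130.4, 112 and 125 in FSP (log2 change 0.90, SE 0.14, adjusted p = 0.0101), and this call holds too.

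Slc3a1, the heavy subunit that pairs with Slc7a9, rose 1.96-fold (log2 change 0.99, SE 0.18, adjusted p = 0.0175), a call that ended without FSP 4 (adjusted p = 0.0638). The neutral amino acid carrier Slc6a19 rose 1.77-fold (log2 change 0.83, SE 0.14, adjusted p = 0.0130), and its call ended without FSP 4 (adjusted p = 0.0520). The cytosolic dipeptidase Cndp2 was nearly level within groups, at 245 to 296 FPKM in HFD and 439.9 to 480.2 in FSP (log2 change 0.71, SE 0.10, adjusted p = 0.00965), and its call holds. The 7 further rises of the list included Dpp4, Mep1a and Anpep. Mep1a, a meprin subunit, was at 17.1, 40.6, 34.3 and 32.8 FPKM in HFD and 153, 136, 62.6 and 261 in FSP (log2 change 2.15, SE 0.40, adjusted p = 0.0204), a call that ended without HFD 3 or FSP 4 (adjusted p up to 0.0619). Anpep, aminopeptidase N, was at 436, 1159, 1139 and 1143 and 1704, 2366, 1961 and 2457 FPKM (log2 change 1.22, SE 0.28, adjusted p = 0.0409), and its call ended without ND 1, ND 2, ND 3, HFD 3, HFD 4, FSP 1, FSP 2, FSP 3 or FSP 4 (adjusted p up to 0.129). The peptide transporter Slc15a1 did not pass, with 63.6, 120.2, 129 and 126 FPKM in HFD and 168, 191, 185 and 269 in FSP (log2 change 0.91, adjusted p = 0.0541), though its groups did not overlap.

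Among bile acid genes, Fabp6 had the largest fold of all calls. Fabp6 (chromosome 11, 43596040 to 43601562, minus strand), the bile acid binding protein of ileal enterocytes, stood at 4.31, 3.54, 2.32 and 1.26 FPKM over HFD 1 to 4, 866, 829, 40.1 and 2953 over FSP 1 to 4 and 9821, 6702 and 397 in ND. The groups did not overlap, but within FSP the levels spanned from 40.1 in FSP 3 to 2953 in FSP 4, in the order of the position score at both ends. The log2 change was 7.21 (SE 1.23, adjusted p = 0.0155), and the call ended without FSP 4 (adjusted p = 0.0520). Slc51a, a subunit of the basolateral bile acid exporter, was at 44.3, 79.6, 87.6 and 96.8 FPKM in HFD and 239.9, 292, 121 and 343 in FSP (log2 change 1.64, SE 0.34, adjusted p = 0.0259), a call that ended without HFD 1, HFD 3, FSP 1, FSP 2 or FSP 4 (adjusted p up to 0.0884). The prostaglandin carrier Slco2a1 rose, with 5.39 to 8.48 FPKM in HFD against 12.7 to 18.4 in FSP (log2 change 1.06, SE 0.15, adjusted p = 0.00965), and this call holds.

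The apical bile acid transporter Slc10a2 did not pass, with 0.146, 0.551, 0.2002 and 0.158 FPKM in HFD and 15.3, 9.70, 2.71 and 29.1 in FSP (log2 change 3.24, SE 0.90, adjusted p = 0.0758). In the fit of the 8 libraries alone Slc10a2 passed (limma adjusted p = 0.0359). Fgf15, the ileal hormone that restrains bile acid synthesis, was at 0.0347, 0.131, 0.0936 and 0 FPKM in HFD and 3.26, 4.43, 0.203 and 29.4 in FSP (adjusted p = 0.148). Both genes passed the filter through the FSP libraries alone, and the Fgf15 mean in FSP rests mostly on FSP 4. Of 12 tested genes of the bile acid list 3 were higher and 1 lower, with a median log2 change of 0.64. The 3 rises include Slco2a1, which is a prostaglandin carrier and was the 1 rise left without FSP 4. Without FSP 3 the list had 6 rises. The 1 fall was that of Nr0b2, a repressor induced by bile acid sensing, at 6.81, 0.970, 3.87 and 4.84 FPKM in HFD and 0.850, 0.318, 1.04 and 0.857 in FSP (log2 change −1.39, SE 0.34, adjusted p = 0.0479), and its groups overlapped. Its call ended with any 1 of 10 libraries left out, all but HFD 2 (adjusted p up to 0.124), and with median-ratio scaling. Nr0b2 passed the filter through its HFD levels alone.

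Of 13 tested distal genes as a whole, which make up the position score, 7 were higher in FSP and 0 lower, with a median log2 change of 1.07. Of 13 proximal ones 3 were lower and 1 higher, with a median of −0.83. The count of distal rises was 0 without FSP 4, 1 without HFD 3, 3 without HFD 1, HFD 4, FSP 1 or FSP 2, 4 without ND 2, and 3 with median-ratio scaling. That of proximal falls was 1 without FSP 4 or HFD 3. The proximal falls included S100g, the cytosolic calcium carrier calbindin-D9k (chromosome X, 162961992 to 162964599, minus strand), at 15.5, 9.01, 16.7 and 22.2 FPKM in HFD and 2.504, 1.87, 4.15 and 1.47 in FSP (log2 change −2.26, SE 0.30, adjusted p = 0.00872), and this call holds. The folate transporter Slc46a1 fell, with 87.7, 32.4, 99.5 and 137 FPKM in HFD and 15.96, 14.1, 29.7 and 11.97 in FSP (log2 change −2.16, SE 0.43, adjusted p = 0.0235), a call that ended without HFD 1, HFD 3, HFD 4, FSP 1, FSP 2 or FSP 4 (adjusted p up to 0.0807). Onecut2, a transcription factor of the upper gut, was at 0.814 to 3.13 FPKM in HFD and 0.0432 to 0.594 in FSP (log2 change −1.36), a call that ended without HFD 3 or FSP 4 (adjusted p up to 0.0626). Onecut2 passed the filter through its HFD levels alone. The proximal gene that rose was the iron transporter Slc11a2 (log2 change 0.78, adjusted p = 0.0465), a call that ended with any 1 of 10 libraries left out, all but HFD 4 (adjusted p up to 0.152). Gata4, which marks the gut above the ileum, was present in every library, at 25.9 to 35.7 FPKM in HFD and 19.8 to 30.2 in FSP.

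Of 24 tested genes of cholesterol synthesis 6 passed and were higher (25.0%, beside 2.81% of all tested genes), 0 were lower, and 20 had an unadjusted p under 0.05. For 18 of the 24 every FSP library was above every HFD library, beside 8.46% of all tested genes. Log2 changes ran from −0.39 to 1.33, with a median of 0.72. Among members with a promoter in the RefSeq table (GRCm38.p6), the sequence just upstream of the start site is shown for 3, to show the letters of a box counted over all promoters below; Cyp51 and Mvd were called and Hmgcs1 was not. Capitals mark CCAAT (or ATTGG on the other strand), the box bound by NF-Y, and TCACNCCAC (on either strand), the core of a sterol regulatory element.

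Cyp51, chr5:4104698-4104947, minus strand: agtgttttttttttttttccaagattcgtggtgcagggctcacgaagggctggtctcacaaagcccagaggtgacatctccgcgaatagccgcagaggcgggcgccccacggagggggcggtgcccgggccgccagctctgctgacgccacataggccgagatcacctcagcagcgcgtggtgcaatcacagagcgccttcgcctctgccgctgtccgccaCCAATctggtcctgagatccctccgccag
Mvd, chr8:122443423-122443672, minus strand: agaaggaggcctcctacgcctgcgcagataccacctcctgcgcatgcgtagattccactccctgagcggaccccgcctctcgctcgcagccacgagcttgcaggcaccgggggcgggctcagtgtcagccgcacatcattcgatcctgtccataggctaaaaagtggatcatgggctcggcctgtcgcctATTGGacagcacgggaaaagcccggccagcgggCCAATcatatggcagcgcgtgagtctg
Hmgcs1, chr13:119690101-119690350, plus strand: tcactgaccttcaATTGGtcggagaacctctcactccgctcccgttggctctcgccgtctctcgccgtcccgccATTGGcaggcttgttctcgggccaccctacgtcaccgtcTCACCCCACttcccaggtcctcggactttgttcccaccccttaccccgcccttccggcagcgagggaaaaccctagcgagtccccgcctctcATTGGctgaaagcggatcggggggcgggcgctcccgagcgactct

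Each stretch holds the 250 bases before the start site, 5′ to 3′ on the gene's strand. The boxes begin 29 bases before the start in Cyp51, 60 and 27 bases before it in Mvd, and 237, 176 and 45 bases before it in Hmgcs1, which also has the sterol core 137 bases before the start. Of the 17 cholesterol genes with a promoter in the table, 16 hold CCAAT on either strand, against 37.5% of all 27025 symbols and 40.6% of the 8188 tested genes. It stands in 41.5% of the 224 rises and in 48.7% of the 76 falls with a promoter in the table. TCACNCCAC occurs in 1 of the 17 and in 1.22% of all symbols. A match is a description of these letters and no evidence of binding.

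Cyp51, the sterol demethylase, was at 5.34, 7.63, 5.28 and 4.91 FPKM in HFD and 12.7, 19.2, 9.89 and 15.4 in FSP (log2 change 1.15, SE 0.27, adjusted p = 0.0398). The squalene epoxidase Sqle rose 2.87-fold (log2 change 1.33, SE 0.32, adjusted p = 0.0423), the decarboxylase Mvd 2.43-fold, the prenyl synthase Fdps 1.97-fold and the sterol carrier Stard4 1.53-fold. The calls of these 5 ended with any 1 of HFD 1, HFD 3, HFD 4, FSP 1, FSP 2, FSP 4 and ND 2 left out (adjusted p up to 0.145), and those of Stard4 and Mvd also without ND 1. The list's count was 0 without FSP 4, 1 without ND 2, HFD 1, HFD 3, HFD 4, FSP 1 or FSP 2, and 10 without ND 3. It was 2 with median-ratio scaling and 0 with the position covariate, while the median stayed between 0.62 and 0.80 with any library left out.

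Hmgcs1, a synthase at the start of the pathway, did not pass. It was at 20.9, 38.4, 28.3 and 17.7 FPKM in HFD and 44.6, 60.1, 28.3 and 52.4 in FSP, with FSP 3 inside the HFD range. The sterol regulator Srebf2 did not pass either (log2 change 0.75, adjusted p = 0.0588). Among sterol transport genes 3 of 11 were higher and 0 lower, with a median log2 change of 0.19. Npc1l1, the apical cholesterol importer, was at 76.5, 112, 107 and 104 FPKM in HFD and 167, 191, 148 and 186 in FSP (log2 change 0.80, SE 0.16, adjusted p = 0.0236), a call that ended without HFD 3, FSP 1, FSP 2 or FSP 4 (adjusted p up to 0.0822). The lysosomal exporter Npc1 rose 1.74-fold (log2 change 0.68, SE 0.12, adjusted p = 0.0175), to levels of 7.16 to 8.87 FPKM that lay above those of ND (4.65 to 6.81), and its call ended without HFD 3 or FSP 4 (adjusted p up to 0.0595). The third was Mylip, a ligase that marks the LDL receptor for breakdown, whose call ended without ND 1, ND 2, HFD 1, HFD 3, HFD 4, FSP 1, FSP 2 or FSP 4 (adjusted p up to 0.137). With median-ratio scaling 1 of the 11 passed, without FSP 1 or FSP 2 also 1, and without FSP 4 or HFD 3, 0.

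**Figure D4:**
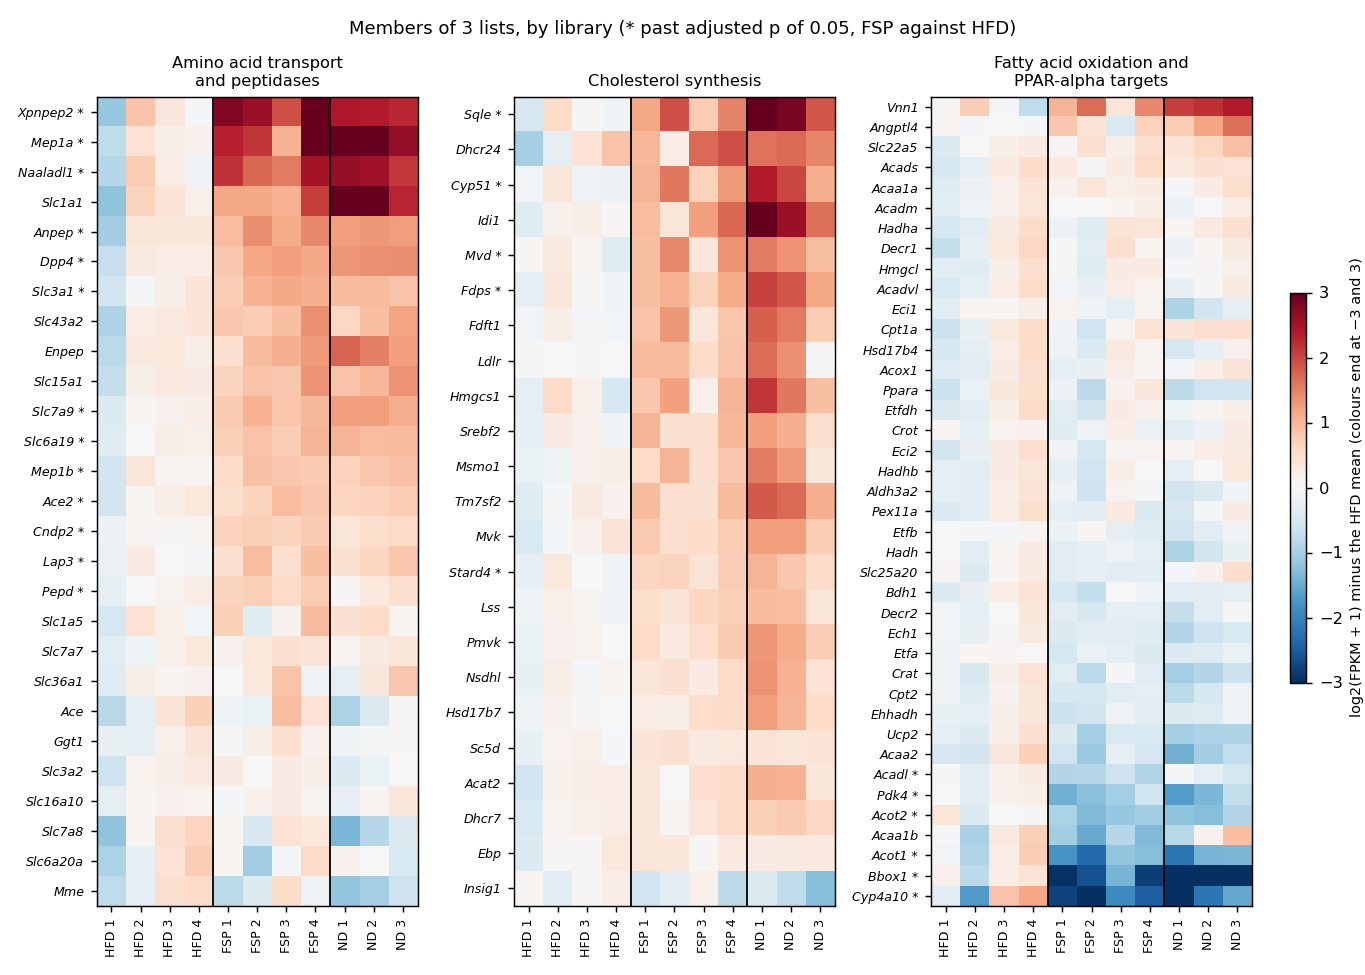
Heat maps of log2(FPKM + 1) minus the HFD mean for members of 3 lists, with libraries in columns and genes in the order of their log2 change, and stars at genes past the threshold. FSP and ND columns are mostly red for amino acid and cholesterol genes, and the darkest blue of the oxidation list lies in the starred genes Cyp4a10 and Bbox1 at its foot.

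Fatty acid oxidation and PPAR-alpha targets had 7 calls, none of them a rise. Of 41 tested members 7 were lower in FSP (17.1%, beside 0.985% of all tested genes) and 0 higher. In all 14 had an unadjusted p under 0.05, and the median log2 change was −0.19. Bbox1, the last enzyme of carnitine synthesis (chromosome 2, 110264056 to 110314813, minus strand), was at 18.5, 9.11, 19.5 and 22.5 FPKM in HFD and 1.26, 1.85, 5.70 and 1.48 in FSP (log2 change −2.45, SE 0.36, adjusted p = 0.00965), with 0.109 to 1.11 in ND. Acot2, a mitochondrial acyl-CoA thioesterase, fell, with 4.40 to 8.29 FPKM in HFD against 1.90 to 2.78 in FSP (log2 change −1.11, SE 0.17, adjusted p = 0.0101). Neither gene overlapped between the groups, and both calls hold.

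The fatty acid hydroxylase Cyp4a10, a classic PPAR-alpha target, varied widely within HFD, at 12.5, 4.27, 29.9 and 37.2 FPKM, and was at 1.49, 0.768, 3.53 and 2.06 in FSP (log2 change −2.61, SE 0.59, adjusted p = 0.0365). Its call ended without ND 2, HFD 1, HFD 3, HFD 4, FSP 1, FSP 2 or FSP 4 (adjusted p up to 0.104). Pdk4, a kinase that holds back glucose oxidation, was at 10.8, 8.39, 11.6 and 12.1 FPKM in HFD and 3.31, 3.91, 4.77 and 6.72 in FSP (log2 change −1.07, SE 0.23, adjusted p = 0.0289), a call that ended without ND 2, HFD 1, HFD 3, HFD 4, FSP 1 or FSP 2 (adjusted p up to 0.0885). The acyl-CoA thioesterase Acot1 was 4.10-fold lower, and its call ended without ND 2, HFD 1, HFD 3, HFD 4, FSP 1, FSP 2 or FSP 4 (adjusted p up to 0.0930). Acadl, the long-chain dehydrogenase, was 1.79-fold lower, and its call ended without HFD 3 or FSP 4 (adjusted p up to 0.0718). By contrast Cpt1a, which admits long-chain fatty acids to mitochondria, was at 13.5 to 32.6 FPKM in HFD and 14.1 to 29.7 in FSP (log2 change −0.05, adjusted p = 0.953). The count of falls was 8 with median-ratio scaling, 5 in the fit of 8 libraries, 3 without HFD 3 and 4 without HFD 1, HFD 4, FSP 1, FSP 2, FSP 4 or ND 2. With equal totals it was 4.

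Of 32 tested genes of fat uptake, resynthesis and chylomicron assembly 1 was lower and 0 were higher, a share near the 3.79% of all tested genes. Of the 32, 9 had an unadjusted p under 0.05, and the median log2 change was 0.02. The fall was that of Slc27a2, an acyl-CoA synthetase of very long chains, with 65.8 to 118 FPKM in HFD against 33.0 to 49.9 in FSP (log2 change −1.16, SE 0.27, adjusted p = 0.0416), a call that ended without ND 2, HFD 1, HFD 2, HFD 3, HFD 4, FSP 1, FSP 2 or FSP 4 (adjusted p up to 0.135). The fatty acid translocase Cd36 was at 34.9, 37.7, 53.2 and 64.6 FPKM in HFD and 20.3, 13.6, 30.6 and 28.5 in FSP (log2 change −1.02, adjusted p = 0.139), and the chylomicron apolipoprotein Apoa4 at 20758, 15115, 17618 and 19813 and 8307, 13808, 15071 and 7394 (adjusted p = 0.510). Both were without overlap and did not pass. Of 16 genes of fatty acid synthesis, the desaturase Scd2 and the elongase Elovl1 were higher and the malic enzyme Me1 lower. Scd2 rose 4.45-fold (log2 change 1.83, SE 0.33, adjusted p = 0.0175), a call that ended without HFD 3 (adjusted p = 0.0544). Me1, a source of NADPH, was at 27.4, 17.5, 41.8 and 53.6 FPKM in HFD, 12.5, 10.3, 13.9 and 12.4 in FSP and 30.9 to 32.3 in ND (log2 change −1.33, SE 0.27, adjusted p = 0.0243), so that FSP lay below both other groups. Its call ended without HFD 3, FSP 1, FSP 2 or FSP 4 (adjusted p up to 0.0819), and that of Elovl1 without ND 1, ND 2, ND 3, HFD 1, HFD 2, HFD 3, HFD 4, FSP 1, FSP 2 or FSP 4 (adjusted p up to 0.142).

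The Fabp family of fatty acid binding proteins split by member. Besides Fabp6, the liver-type Fabp1 of the upper gut was at 11584, 11349, 12219 and 14642 FPKM in HFD and 4589, 5711, 8649 and 2619 in FSP (log2 change −1.33, SE 0.56, adjusted p = 0.226). The intestinal type Fabp2 was at 15260.3, 20075, 16418 and 15989.6 FPKM in HFD and 26558, 36945, 20186 and 23314 in FSP (log2 change 0.63, SE 0.22, adjusted p = 0.139). Neither passed, yet neither overlapped between the groups. Fabp4, the fat cell type, followed the adipocyte markers, at 113, 19.2, 26.4 and 200.3 FPKM over FSP 1 to 4 and 21.0 to 69.4 in HFD, and Fabp5 had a log2 change of 0.04. Fabp3, Fabp7, Fabp9 and Fabp12 had means below the filter of 1 FPKM.

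Gip, the gene of gastric inhibitory polypeptide (chromosome 11, 96024532 to 96030831, plus strand), an incretin that K cells of the upper gut release on feeding, stood at 81.8, 109, 104 and 108 FPKM over HFD 1 to 4, 60.5, 86.9, 36.0 and 49.2 over FSP 1 to 4 and 18.9, 30.8 and 48.3 in ND. FSP 2 lay above HFD 1, so that the groups overlapped in the deposited values. The median-ratio scaling factor was 0.750 for HFD 1 and 0.865 for FSP 2, and overlap after rescaling was not examined. The means were 58.2 ± 21.6 in FSP and 101 ± 12.8 in HFD (SD, n = 4 each), with a log2 change of −0.84 (SE 0.29). This did not pass limma's test over all genes (adjusted p = 0.139) or the two-sided exact permutation test (p = 0.0571, and 0.126 after adjustment over the 22 genes tied to the series title). With median-ratio scaling the log2 change of Gip was −0.99 (limma adjusted p = 0.131). With equal totals without the mitochondrially encoded genes it was −0.95 (limma adjusted p = 0.0736). The exact test was run on the deposited values only. The smallest p that 4 against 4 libraries allow is 0.0286. Of the 22 genes 7 reached that value, Fabp6, Dpp4 and Fabp2 with FSP above HFD and Cd36, Fabp1, Apoa4 and Pdk4 with FSP below, and each had an adjusted exact p of 0.0898. Dpp4, the protease that inactivates incretins, was at 44.2, 87.6, 84.3 and 84.5 FPKM in HFD and 129, 164, 171 and 161 in FSP (log2 change 1.09, SE 0.20, adjusted p = 0.0183 by limma), a call that ended without FSP 4 (adjusted p = 0.0661). The incretin receptor Gipr was at 0.399, 0.201, 0.293 and 0.279 FPKM in HFD and 0.261, 0.121, 0.139 and 0.0720 in FSP, under the filter.

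Of the other gut hormones, Pyy, a satiety peptide of distal L cells, passed. It was at 3.92, 8.66, 4.53 and 1.82 FPKM in HFD and 28.9, 43.9, 8.23 and 23.4 in FSP (log2 change 2.17, SE 0.47, adjusted p = 0.0308), with overlap between FSP 3 and HFD 2. The call ended without ND 2, HFD 1, HFD 3, HFD 4, FSP 1, FSP 2 or FSP 4 (adjusted p up to 0.0951) and with median-ratio scaling. Guca2a, the guanylin gene of the epithelium, was at 135, 484, 230.0 and 93.6 FPKM in HFD and 1129.9, 1194, 781 and 1145 in FSP, or 4.51-fold (log2 change 2.43, SE 0.40, adjusted p = 0.0130), above the 612 to 736 of ND in every library. Its call ended without FSP 4 (adjusted p = 0.0515). None of 10 tested enteroendocrine granule and transcription factor genes passed limma's test, and 1 had an unadjusted p under 0.05.

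Genes that answer to microbes moved in both directions. Of 19 tested 3 were higher and 2 lower, with a median log2 change of 0.01. Duox2 (chromosome 2, 122279246 to 122298740, minus strand), the epithelial hydrogen peroxide source, was at 0.108, 2.72, 1.02 and 0.252 FPKM in HFD and 3.58, 26.8, 13.7 and 16.6 in FSP (log2 change 2.91, SE 0.51, adjusted p = 0.0175), a call that ended without HFD 3 or FSP 4 (adjusted p up to 0.0618). Duoxa2 (chromosome 2, 122298900 to 122302885, plus strand), the neighbour whose product brings Duox2 to the surface, was at 0.239, 4.80, 1.46 and 0.531 FPKM in HFD and 4.36, 40.3, 12.1 and 21.7 in FSP (log2 change 2.81, SE 0.60, adjusted p = 0.0291). Nos2, the inducible nitric oxide synthase, was at 0.0292, 1.95, 0.631 and 0.0562 FPKM in HFD and 3.98, 17.997, 3.54 and 31.7 in FSP (log2 change 2.85, SE 0.59, adjusted p = 0.0266). Nos2 passed the filter through its FSP levels alone. HFD 2 was the highest HFD library and FSP 2 or FSP 4 the highest FSP library for all 3. ND was at 32.3 to 56.4 FPKM for Duox2, above every FSP library, and at 27.6 to 45.5 for Nos2, where FSP 4 lay inside the ND range. Duoxa2 alone overlapped. The Duoxa2 call ended without ND 2, HFD 1, HFD 3, HFD 4, FSP 2 or FSP 4 (adjusted p up to 0.0977), and that of Nos2 without ND 2, HFD 1, HFD 3, HFD 4, FSP 2 or FSP 4 (adjusted p up to 0.0740).

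The lectins Reg1 and Reg4 were lower. Reg1 stood at 47.0, 18.9, 157 and 222 FPKM in HFD and 3.01, 4.33, 19.5 and 4.68 in FSP (log2 change −3.43, SE 0.70, adjusted p = 0.0251), with FSP 3 above HFD 2, and its call ended without HFD 3, HFD 4, FSP 1, FSP 2 or FSP 4 (adjusted p up to 0.0843). Reg4 was at 67.0, 38.7, 93.0 and 123 FPKM in HFD and 13.0, 13.0, 35.2 and 10.8 in FSP (log2 change −2.14, SE 0.38, adjusted p = 0.0175), without overlap, a call that ended without HFD 3 or FSP 4 (adjusted p up to 0.0629). ND was at 6.07 to 7.64 FPKM for Reg1 and 6.86 to 9.51 for Reg4. Without FSP 4 or HFD 3 this list had 0 calls. Without HFD 1 or ND 2 it had 1 rise and 2 falls, without HFD 4 1 rise and 1 fall, and without FSP 2 1 rise and 3 falls.

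Several single genes outside these lists or at their edge had calls that hold. H2-Q10 (chromosome 17, 35470089 to 35474563, plus strand), a class I-like molecule of the Q region, stood at 37.3, 7.08, 18.4 and 27.8 FPKM in HFD and 1.80, 1.46, 1.34 and 1.58 in FSP, 14.7-fold lower (log2 change −3.01, SE 0.37, adjusted p = 0.00857), with ND at 2.38 to 3.37. It was the 1 fall among 18 tested genes of class I presentation, whose median log2 change was −0.05. It belongs to a family of near-identical genes among which reads can be misplaced, so its own level is uncertain. Mcoln3, a lysosomal cation channel, was at 5.85, 1.68, 4.98 and 5.22 FPKM in HFD and 0.185, 0.294, 0.299 and 0.141 in FSP (log2 change −2.06, SE 0.25, adjusted p = 0.00857). Slc6a3, the dopamine transporter, was at 3.203, 1.53, 2.79 and 3.33 FPKM in HFD and 0.297, 0.365, 1.02 and 0.283 in FSP (log2 change −1.31, SE 0.20, adjusted p = 0.0101). For all 3 every FSP library was below every HFD library, with the narrowest gap for Slc6a3, between FSP 3 and HFD 2, and the 3 calls hold. Mcoln3 and Slc6a3 passed the filter through their HFD levels alone.

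Rises that hold included membrane carriers of vitamins, phosphate and choline. Slc52a3, a riboflavin transporter, was at 6.71, 13.8, 11.1 and 9.18 FPKM in HFD and 52.9, 60.1, 25.2 and 67.5 in FSP (log2 change 2.18, SE 0.28, adjusted p = 0.00857). Slc34a2, the sodium-phosphate cotransporter (chromosome 5, 53049353 to 53071664, plus strand), was at 28.7, 26.8, 15.7 and 10.3 FPKM in HFD and 61.1, 93.7, 88.0 and 117 in FSP (log2 change 2.16, SE 0.29, adjusted p = 0.00872). Slc44a4, a choline-transporter-like protein linked to thiamine pyrophosphate uptake, was at 12.4, 19.2, 17.6 and 16.2 FPKM in HFD and 41.1, 51.6, 42.9 and 69.98 in FSP (log2 change 1.58, SE 0.20, adjusted p = 0.00857). All 3 were without overlap. Of 12 genes of water-soluble vitamin uptake 2 were higher, Slc52a3 and the cobalamin receptor partner Amn, and 1 was lower, Slc46a1. The call of Amn ended without HFD 1, HFD 3, HFD 4, FSP 1, FSP 2 or FSP 4 (adjusted p up to 0.0718). Smaller but very even rises were those of Bspry, at 12.3, 12.4, 12.7 and 12.9 FPKM in HFD and 21.8, 21.3, 19.9 and 24.8 in FSP (log2 change 0.75), and of the tubulin Tuba4a, at 15.7, 16.3, 15.6 and 15.9 FPKM in HFD and 26.5, 27.0, 24.7 and 31.3 in FSP (log2 change 0.75).

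Further calls that hold spanned several functions. Ocm, the calcium binding protein oncomodulin, was at 4.85, 12.3, 5.94 and 3.85 FPKM in HFD and 35.7, 42.1, 16.7 and 32.8 in FSP (log2 change 2.13, SE 0.32, adjusted p = 0.00965). Adcy8, an adenylate cyclase, was at 0.312, 1.04, 0.571 and 0.266 FPKM in HFD and 3.17, 3.82, 1.83 and 4.61 in FSP (log2 change 1.48), and passed the filter through its FSP levels alone. Ext1, a polymerase of heparan sulfate chains, was at 2.83, 4.83, 4.85 and 5.05 FPKM in HFD and 8.44, 10.8, 12.1 and 13.3 in FSP (log2 change 1.18). Prkab1, a regulatory subunit of the energy sensor AMPK, was at 10.8, 16.3, 13.0 and 11.9 FPKM in HFD and 31.5, 24.6, 24.2 and 29.6 in FSP (log2 change 1.03). Aacs, which returns the ketone acetoacetate to the lipid supply, was at 2.29, 2.87, 3.01 and 2.76 FPKM in HFD and 5.89, 4.96, 4.77 and 6.79 in FSP (log2 change 0.82). Ptdss1, a phosphatidylserine synthase, was at 21.9, 33.6, 28.9 and 26.8 and 54.2, 53.4, 42.3 and 66.7 FPKM (log2 change 0.94), and the extracellular matrix protein gene Tgfbi at 31.2, 37.7, 43.8 and 46.7 and 86.1, 96.3, 71.7 and 98.5 (log2 change 1.13). The cell cycle inhibitor Cdkn2b and the transcription factor Foxo6 rose by log2 changes of 0.87 and 0.81. Falls that hold included Fam13a, at 8.15, 6.23, 11.3 and 11.96 FPKM in HFD and 2.47, 1.93, 4.74 and 2.67 in FSP (log2 change −1.41, SE 0.22, adjusted p = 0.0122), the adaptor subunit Ap1s3 (log2 change −1.18) and Rtn4rl1, a Nogo receptor relative (log2 change −0.95). HFD and FSP did not overlap in any of these 12 genes, as in 283 of the 288 rises and 92 of the 101 falls.

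Of the largest changes, several belong to calls that ended with 1 library left out. Slc5a8, a sodium-coupled carrier of short-chain fatty acids, was at 2.91, 14.4, 5.52 and 1.02 FPKM in HFD and 24.9, 39.9, 22.5 and 38.5 in FSP (log2 change 2.57, SE 0.49, adjusted p = 0.0208), and its call ended without HFD 1, HFD 3, FSP 2 or FSP 4 (adjusted p up to 0.0718). Enpp7, the alkaline sphingomyelinase of the brush border, was at 91.7, 309.6, 228 and 197 FPKM in HFD and 568, 555, 654 and 888 in FSP (log2 change 1.79, SE 0.33, adjusted p = 0.0202), a call that ended without HFD 3 or FSP 4 (adjusted p up to 0.0718). Lypd8l fell, at 102, 207, 265 and 288 FPKM in HFD and 13.5, 38.0, 78.9 and 20.003 in FSP (log2 change −2.69, SE 0.50, adjusted p = 0.0196), a call that ended without HFD 3 or FSP 4 (adjusted p up to 0.0718). Pmm1, a phosphomannomutase, was at 34.4, 10.6, 32.4 and 43.5 FPKM in HFD and 7.19, 5.44, 6.06 and 6.39 in FSP (log2 change −1.95, SE 0.33, adjusted p = 0.0159), and its call ended without HFD 3 or FSP 4 (adjusted p up to 0.0539). All 4 were without overlap, and HFD 2 stood nearest to FSP among the HFD libraries for Slc5a8, Enpp7 and Pmm1.

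In 4 of the calls that hold, the FSP levels lay outside those of both other groups, above them for Marcksl1, Dnpep and Cndp2 and below them for H2-Q10. Marcksl1 (chromosome 4, 129513581 to 129515981, plus strand), a regulator of the actin cortex, was at 11.7, 11.2, 9.91 and 9.91 FPKM in HFD, 41.4, 31.5, 26.1 and 23.6 in FSP and 10.55, 10.1 and 8.86 in ND. It rose 2.88-fold (log2 change 1.41, SE 0.16, adjusted p = 0.00857), and the levels of HFD and ND overlapped. Dnpep, an aspartyl aminopeptidase, was at 27.0, 47.4, 42.3 and 39.1 FPKM in HFD, 91.5, 83.7, 105 and 126 in FSP and 44.2, 52.6 and 64.4 in ND (log2 change 1.37, SE 0.19, adjusted p = 0.00962). These 4 were singled out after their values were seen, and FSP was not tested against ND here. The trait is not particular to them, since Guca2a (above) and Me1 (below) showed it too though their calls do not hold. Its share over all tested genes is not given here.

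In the remaining lists the members called are given with their share, beside 3.79% over all tested genes. Enterocyte markers had 4 rises and 0 falls among 18, or 22.2% (Myo1a, Epcam, Ezr and Anpep). Their median log2 change was 0.43, with 16 members above 0 and 2 below. The count of rises was 0 without ND 2, HFD 3, FSP 2 or FSP 4. Tight junction and adhesion genes had 3 rises among 24, or 12.5% (Cldn7, Pkp3 and Epcam; median 0.32), and the count was 1 without FSP 1 and 0 without HFD 3 or FSP 4. Ion transport had 3 rises (Guca2a, Clca4b, Slc4a4) and 1 fall among 18 (22.2%), the fall being that of the carbonic anhydrase Car2, with 18.8 to 26.0 FPKM in HFD against 2.70 to 9.02 in FSP (log2 change −1.97, SE 0.33, adjusted p = 0.0134), a call that ended without FSP 4 (adjusted p = 0.0508). Iron, calcium and zinc genes had 3 rises (Slc39a4, Epas1, Slc11a2) and 1 fall (S100g) among 16 (25.0%). Of 22 cytochrome P450 genes Cyp4f14 and Cyp4b1 were higher and Cyp4a10 lower (13.6%). Conjugating enzymes had 2 falls (Gstt1, Ugt2b5) and 1 rise (the efflux pump Abcg2) among 35 (8.57%), with a median of −0.33. The alcohol dehydrogenases Adh4 and Adh7 were lower among 20 genes of alcohol and retinoid metabolism. Adh4 fell 7.06-fold (log2 change −2.33, SE 0.43, adjusted p = 0.0202), a call that ended without HFD 3 or FSP 4 (adjusted p up to 0.0718). Single calls were the rises of Srxn1 and Edem1 and the falls of Gclm, Pparg and Afp, the last a fetal liver gene at 3.71 to 18.4 FPKM in HFD and 0.521 to 2.57 in FSP, while the liver gene Alb reached 3.06 in HFD 1 and at most 0.719 in the other 7. Apart from S100g, every call named in this paragraph ended without FSP 4, with adjusted p from 0.0508 (Car2) to 0.152 (Slc11a2), and many of them without other libraries too.

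**Figure D5:**
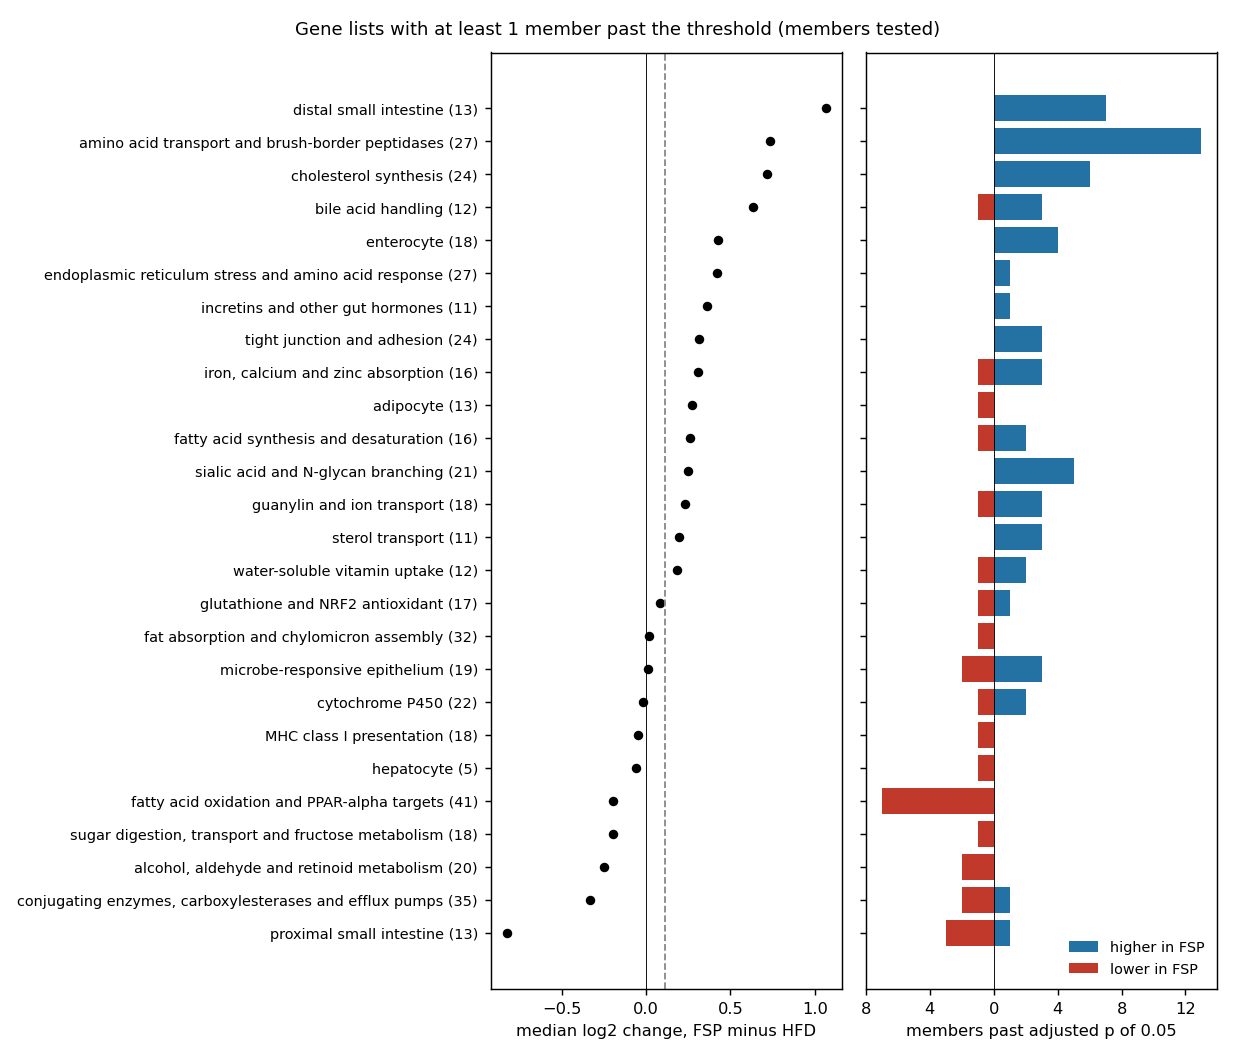
Left, the median log2 change (FSP minus HFD) of each list with at least 1 call and at least 5 tested members, with the dashed line at the median of all tested genes (0.11). Right, the number of members past the threshold, with higher ones to the right of 0 and lower ones to the left; the distal list has the highest median (1.07), the proximal list the lowest (−0.83), and the amino acid list the most calls (13).

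In 23 of the 50 lists none of the members passed limma's test. Of their 305 tested members (some counted in more than 1 list) 41 had an unadjusted p under 0.05. Over all tested genes, 1925 of 10252 did so, a larger share. The 23 lists were those of colon, Paneth, goblet, tuft, stem, dividing and granule-bearing endocrine cells, of B, T and myeloid cells, of muscle, fibroblasts, endothelium, neurons and pancreas, and those of interferon response, class II presentation, chemokines, clock, immediate early, purine, nuclear and mitochondrially encoded respiratory genes. Goblet cell genes had a median log2 change of 0.35 with 0 of 12 at an unadjusted p under 0.05, and 4 were called as higher without FSP 3. Endothelial and myeloid lists likewise had 0 calls with all libraries and 4 rises each without FSP 3. For the 13 genes of the mitochondrial genome the median was −0.73, with all 13 below 0 and 8 at an unadjusted p under 0.05, and that median was −0.64 at its nearest to 0 with a library left out.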

How the data were processed

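RNA-seq libraries of mouse intestine (3 ND, 4 HFD, 4 FSP; TRIzol extraction and a VAHTS Universal V6 kit, per the labels) were used as the authors' deposited FPKM, in 1 table of 24250 genes with 1 column a library. Per the submitters' processing notes, the tools include HISAT2, HTSeq, fastp and R 3.2.0, and the build is mm10. Annotation, strand setting and the step that gave FPKM: not given in the sources used here. Without strand, reads of overlapping or antisense genes cannot be separated. The single-library tables held the same values, except that those of HFD and ND list 685 further genes, all at 0, and lack 641 that are at 0. Raw counts were not used, so depth was estimated from steps in low values of genes with 1 exon (75.0% to 79.8% of them within 0.05 of a whole fragment), too few for a count test; 1 FPKM of a 1 kb gene is then about 31.8 to 38.4 fragments.

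Values were taken as log2(FPKM + 1) for genes with a mean of at least 1 FPKM over the FSP and HFD libraries, a scale that understates changes of low genes. limma 3.58.1 in R 4.3.3 (trended empirical Bayes, all 11 libraries sharing 1 spread, no covariate) tested FSP minus HFD, with Benjamini-Hochberg adjustment over 10252 genes and a threshold of 0.05. Fold values are ratios of mean FPKM. The 22 genes tied to the series title were also compared by two-sided exact permutation (scipy 1.17.1). Named genes are the 20 largest rises and 20 largest falls with assigned symbols, the 10 smallest p, calls that hold, title genes, Fabp genes, defining markers and, in each of 50 lists, the calls (the 6 with the smallest p where there are more) and up to 3 further genes by p. Some genes that fall under this rule are not reported here. Members and lists were chosen with earlier results of these data known. Symbols of 23228 genes matched RefSeq GRCm38.p6, the source of coordinates and promoters. The alternatives comprised other pseudocounts, filters, scalings, the 8 libraries alone, a replicate block, no intensity trend, the position score as a covariate, and leaving out each library.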

Additional observations from a re-analysis of the deposited data

Results flagged for a closer look

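Within the groups of 4, 22 single libraries lay far from the other 3, by Dixon's test at its 95% critical value. In all, 276 groups over 133 genes and 5 library measures were scanned, and chance alone flags about 1 in 20 groups, beside 7.97% here. HFD 1 was the far library in 8 cases and FSP 3 in 7, HFD 2, FSP 1 and FSP 4 in 2 each, and FSP 2 in 1.

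HFD 1 was low for all 8 of its genes, among them brush-border and transport genes. It stood at 44.2 FPKM for the protease Dpp4, where the median of the other 3 HFD libraries was 84.5, at 436 for aminopeptidase N (Anpep, 1143), at 47.1 for the amino acid carrier Slc7a9 (69.4) and at 4.16 for the bicarbonate carrier Slc4a4 (6.92). It was also low for Cyp4b1 (18.6 against 43.3), Ext1 (2.83 against 4.85), Pcsk1, a prohormone convertase (0.728 against 2.02), and Gip (81.8 against 108). Its mitochondrially encoded share of 40.4% was not itself far enough from the others by this criterion. The median-ratio scaling factor of HFD 1 was 0.7503, against 0.9827 to 0.9935 in the other HFD libraries. Summed FPKM without the mitochondrially encoded genes was 360184 in HFD 1, against 414914 to 434974. Low values in HFD 1 were therefore not particular to these genes. Without HFD 1 the log2 change (FSP minus HFD) was 0.85 for Dpp4, 0.87 for Anpep, 0.77 for Slc7a9 and −0.94 for Gip.

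FSP 3, the FSP library with the lowest position score, lay nearer to HFD than the other 3 FSP libraries for each of its 7 genes. It stood at 14.3 FPKM for Plb1 (median of the others 192), 34.4 for Tmigd1 (173), 781 for Guca2a (1145), 13.1 for Neu1 (25.7), 35.2 for Reg4 (13.0), 126 for Acadl (106) and 1.02 for Slc6a3 (0.297).

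The other far libraries were HFD 2 at 1.68 FPKM for Mcoln3 (median of the others 5.22) and 0.659 for the fatty acid receptor Ffar4 (0.327), FSP 1 at 408 for the glucose carrier Slc5a1 (558) and 831 for Clca4b (1188), FSP 2 at 1354 for Clec2h (902), and FSP 4 at 10.7 for Crybg1 (7.39) and 0.0691 for Gpr119 (0.0239). Ffar4 and Gpr119 are at levels of a few fragments.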

How the results depend on the processing

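With all genes tested and no filter on low values, 121 genes passed limma's test (89 higher, 32 lower). Median-ratio scaling gave 178 rises and 172 falls, quantile normalization 197 falls, equal totals 44 falls, and equal totals without the mitochondrially encoded genes 159 rises. The fit of the 8 libraries alone called 72 genes (53 higher, 19 lower). With the position score as a covariate 0 genes passed, 0 higher and 0 lower, with 722 at an unadjusted p under 0.05, against 1925 in the main fit. Leaving out 1 library gave 48 to 454 calls, 34 to 341 of them higher and 14 to 129 lower, lowest without FSP 4 and highest without FSP 3 (rises, calls) or HFD 2 (falls). Other pseudocounts, filters at 5 FPKM or over 11 libraries, and the fit without a trend kept the counts within 1.5 times. The cause of these shifts was not tested beyond what each alternative's construction shows. All 389 genes kept their direction in every setting run, the covariate fit included, with 383 and 300 of them tested under the filters over 11 libraries and at 5 FPKM. Depth limits low genes, where 0.1 FPKM of a 1 kb gene is under 4 fragments.

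With the replicate number as a block, 345 genes passed (241 higher, 104 lower). Deviations of same-numbered HFD and FSP libraries correlated across genes with r = 0.39, 0.02, 0.46 and 0.40 for numbers 1 to 4, and not every library correlated best with its own number (HFD 1 with FSP 2, at 0.60), so the numbers were not taken to pair the libraries.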

Other observations

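Some antimicrobial and acute phase genes that the comparison did not call differed widely between libraries of the same group. Reg3g, a lectin that kills Gram-positive bacteria, was at 56.1, 2664, 905 and 74.8 FPKM over HFD 1 to 4, 409, 7393, 1673 and 2224 over FSP 1 to 4 and 8633 to 9158 in ND. Saa1, an acute phase protein of the ileum and colon, was at 0.114, 1.14, 0.170 and 0.0324 FPKM in HFD and 0.236, 62.5, 1.49 and 4.74 in FSP. HFD 2 and FSP 2 were the highest of their groups for both. The plasma cell gene Jchain was at 70.05, 151, 142 and 121 FPKM in HFD and 408, 697, 84.3 and 335 in FSP, so that FSP 3 lay among the HFD libraries.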
